A study of Mus musculus with 3 samples.

Results

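A set of 814 tumor monocytes that each carried at least 2 of 6 selecting genes, among them Inhba, Sdc1, Emp1, Tgm2 and Dmkn, was described, out of 1506 monocytes and 12472 cells kept from 3 single-cell RNA-seq libraries of tumor leukocytes. Vehicle held 227 of these cells, p38i held 428 and p38KO held 159. The cells were selected on their own transcripts, so the levels of the selecting genes, and of every other gene that separates these cells from other cells, are given as descriptions. A kept cell had at least 1500 UMIs (unique molecular identifiers, which count captured mRNA molecules), at least 300 genes and at most 20% mitochondrial UMIs. A monocyte carried at least 3 of Ly6c2, Ccr2, Fn1, Vcan, F13a1, Plac8, Ms4a4c and Chil3, fewer than 10 UMIs over C1qa, C1qb and C1qc, no Cd3e or Flt3, and at most 1 of the neutrophil genes Cxcr2, Csf3r, Hdc and Il1r2. Monocytes with at least 2 of the 6 selecting genes, and fewer than 2 of Ace, Ass1, Ly6i, Smpdl3b and Cxcl9, are called Emp1-set monocytes here. To place them, 3 neighbors were used, namely 378 Ace-set monocytes (2 or more of the Ace genes), 314 remaining monocytes (fewer than 2 genes of either set) and 743 C1q-high macrophages, which had 10 or more C1q UMIs and met the limits on Cd3e, Flt3 and neutrophil genes, with no monocyte gene asked for.

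The leukocytes came from tumors of 4T1-luc cells, a luciferase-carrying mouse mammary carcinoma line, grown in the mammary fat pad of female BALB/c mice that were 6 to 8 weeks old at implantation. The study asked how blocking the stress kinase p38 reshapes the immune cells of the tumor microenvironment (TME). Vehicle mice carried unmodified 4T1-luc tumors and received DPBS, and p38i mice carried the same tumors and received the p38 inhibitor LY2228820 (ralimetinib) by gavage at 30 mg/kg daily for 10 days from day 4. p38KO mice carried tumors grown from a single 4T1 clone in which CRISPR-Cas9 had inactivated Mapk14, the gene of p38α, and no treatment is given for them. The leukocytes in p38KO tumors were therefore of wild-type hosts, and the level of Mapk14 in them does not check the knockout. Live CD45+ cells were sorted on day 14 from tumors of 3 mice pooled into 1 library for each group. With no second library in any group, no difference between groups could be tested, a batch cannot be told apart from a condition, and the intervals below are 95% intervals of counting error only.

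Circulating Ly6C-high monocytes leave the blood through the receptor CCR2 and enter tumors, where they can take up inflammatory, antigen-presenting or tissue-repair programs before they mature into macrophages. Low oxygen stabilizes the factor HIF-1, which switches on genes of glycolysis, glucose uptake and blood vessel growth. The kinase p38 is active in myeloid cells too, where it drives immediate early genes and, through its partner MK2, stabilizes the mRNAs of inflammatory mediators.

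A total of 3 gene groups recur below, and a pair of promoters from each shows the letters that their known regulators read. They were picked among promoters that hold these letters. The sequences are the 250 bases before the RefSeq gene start on GRCm38.p6, written 5′ to 3′ on the strand of the gene. Capitals mark a motif or its reverse complement, which can overlap each other, as in the palindromes of Dusp1 and Bnip3. Fos (chr12:85473640-85473889, plus strand) and Dusp1 (chr17:26508473-26508722, minus strand) stand for the immediate early genes, with TGACG, the core of the cyclic AMP response element.
Fos: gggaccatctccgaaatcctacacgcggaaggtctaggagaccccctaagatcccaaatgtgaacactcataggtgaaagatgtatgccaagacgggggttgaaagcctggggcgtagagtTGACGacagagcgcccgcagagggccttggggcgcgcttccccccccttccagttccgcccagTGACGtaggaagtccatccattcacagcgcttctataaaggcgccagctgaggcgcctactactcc
Dusp1: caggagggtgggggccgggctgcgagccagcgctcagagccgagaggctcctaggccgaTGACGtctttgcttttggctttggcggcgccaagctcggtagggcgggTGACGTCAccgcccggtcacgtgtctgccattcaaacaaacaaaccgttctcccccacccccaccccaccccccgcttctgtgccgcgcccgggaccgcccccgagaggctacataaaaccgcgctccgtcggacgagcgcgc
Ddit4 (chr10:59951771-59952020, minus strand) and Bnip3 (chr7:138909507-138909756, minus strand) stand for the hypoxia response, with ACGTG, the core of the hypoxia response element.
Ddit4: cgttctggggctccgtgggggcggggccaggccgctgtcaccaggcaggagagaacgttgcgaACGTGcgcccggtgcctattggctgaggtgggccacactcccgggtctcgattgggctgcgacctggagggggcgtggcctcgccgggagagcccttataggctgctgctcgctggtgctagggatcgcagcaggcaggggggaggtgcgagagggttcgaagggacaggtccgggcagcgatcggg
Bnip3: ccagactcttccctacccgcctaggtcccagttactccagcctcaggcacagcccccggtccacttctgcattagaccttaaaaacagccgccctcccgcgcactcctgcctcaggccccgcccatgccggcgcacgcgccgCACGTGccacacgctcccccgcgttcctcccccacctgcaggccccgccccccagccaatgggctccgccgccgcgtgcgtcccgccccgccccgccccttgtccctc
Rsad2 (chr12:26456453-26456702, minus strand) and Ifit3 (chr19:34583279-34583528, plus strand) stand for the interferon response, with GAAA, any 2 bases (NN) and GAAA again, the core of the interferon-stimulated response element.
Rsad2: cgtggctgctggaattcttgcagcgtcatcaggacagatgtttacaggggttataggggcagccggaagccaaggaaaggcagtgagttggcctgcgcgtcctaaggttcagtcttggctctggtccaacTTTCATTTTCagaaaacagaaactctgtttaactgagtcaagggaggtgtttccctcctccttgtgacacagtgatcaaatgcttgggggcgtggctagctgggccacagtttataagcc
Ifit3: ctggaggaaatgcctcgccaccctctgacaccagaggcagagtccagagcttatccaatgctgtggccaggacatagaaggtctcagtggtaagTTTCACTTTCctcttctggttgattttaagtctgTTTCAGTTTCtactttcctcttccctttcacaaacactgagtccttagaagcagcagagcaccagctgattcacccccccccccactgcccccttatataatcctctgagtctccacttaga
In windows of this length and searched on both strands, TGACG was present in 7 of 18 immediate early promoters (38.9%, with 18 of 24 listed genes matched to an entry) and in 17.9% of all 27025 promoters. ACGTG, which can share letters with TGACG, was present in 8 of 18 hypoxia promoters (44.4%, 18 of 22 listed genes matched) and in 16.6% of all. It was also present in 6 of 18 immediate early promoters (33.3%), and TGACG in 4 of 18 hypoxia promoters (22.2%). The interferon motif was present in 15 of 22 interferon promoters (68.2%, 22 of 28 matched) and in 3.04% of all. These matches describe letters and not occupied sites.

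The monocyte genes are part of the rule, which asked for any 3 of the 8, so their levels describe the cells and do not check the label. In all libraries 7 of the 8 were past a log2 ratio of 1 over C1q-high macrophages, and Fn1, fibronectin, was not (1223, 1177 and 1344 counts per 1000000 summed UMIs of the set, CPM, in vehicle, p38i and p38KO, against 730, 969 and 981 CPM). Plac8 reached 2487, 2225 and 2841 CPM, against 75.6, 116 and 96.4 CPM in the macrophages. Ly6c2, which encodes the surface antigen of classical monocytes, stood at 523, 337 and 978 CPM, and in the macrophages at 8.71, 15.8 and 22.8 CPM. A Ly6c2 UMI was found in 66.5%, 54.0% and 70.4% of Emp1-set cells. Ccr2, the receptor for Ccl2, stood at 934, 894 and 1140 CPM. Emp1-set cells had a median of 8250, 6896 and 7371 UMIs and 2342, 2157 and 2234 genes, and a median mitochondrial share of 2.51%, 2.49% and 2.69%.

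Of the markers of other cell types, those of macrophages and neutrophils were the most abundant. The 10 macrophage markers summed to 5811, 4599 and 5969 CPM, mostly from Apoe (3634, 2940 and 3568 CPM), against 5541, 5381 and 16003 CPM over all kept cells. Among these markers C1qa and C1qb, which the rule limits, were higher in p38KO than in vehicle by a log2 ratio of 1 or more. The median ratio of the 3 C1q genes was 1.29, and C1qa had 35, 33 and 67 UMIs. The 12 neutrophil markers summed to 1437, 1491 and 1285 CPM, led by S100a8, while all kept cells, neutrophils included, held 60925, 68176 and 29879 CPM. The 8 T cell markers came to 8.33, 12.3 and 12.7 CPM, with Cd3e at 0 by the rule. In the sums of these 3 lists the libraries did not stand far apart. They did in the NK list (36.9, 29.6 and 150 CPM, with Gzma at 94.7 CPM in p38KO), the mast cell list (2.08, 0.944 and 119 CPM, led by Tpsb2) and the tumor epithelial list (3.64, 5.35 and 186 CPM, led by Krt18, with Krt14 and Cldn7 at 0). All kept cells held 561, 447 and 434 CPM of the NK list, 44.7, 66.0 and 702 CPM of the mast cell list and 14.7, 8.67 and 66.6 CPM of the tumor epithelial list. Of the NK, mast cell and tumor epithelial lists, only the last in p38KO was thus higher in Emp1-set cells than over all kept cells. The B cell list was lowest in p38KO, at 55.7, 38.1 and 3.18 CPM in Emp1-set cells. The dendritic cell list held 44.2, 20.1 and 32.6 CPM, and the fibroblast and erythroid lists held less than 10 CPM in each library. The endothelial list held 67.1, 65.5 and 123 CPM, most of it Pecam1, which monocytes also express. Another of its genes, Kdr, was higher in p38KO than in vehicle by a log2 ratio of 1 or more. Between pairs of libraries 6, 5 and 9 deposited barcodes were the same, and no barcode belonged to an Emp1-set cell in both libraries of a pair.

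With all UMIs of each cell, Emp1-set cells were the most numerous class of monocyte by this rule in every library. They made up 51.6% of monocytes in vehicle (Clopper-Pearson interval 46.8 to 56.3), 59.9% in p38i (56.2 to 63.6) and 45.2% in p38KO (39.9 to 50.5). A cell with more UMIs has more chance of meeting a rule of detected genes, so every cell was also thinned to 1500 UMIs and the whole rule applied again. The shares were then 43.9% (39.1 to 48.7), 48.0% (44.2 to 51.9) and 42.6% (37.4 to 47.9), and the intervals overlapped. The thinned set was not the same cells, since 134 of 227, 222 of 428 and 104 of 159 Emp1-set cells stayed in it, and the Ace set went from 29.5%, 21.3% and 27.3% of monocytes to 9.70%, 5.61% and 8.91%. The remaining monocytes then made up 46.4%, 46.4% and 48.5%, more than the Emp1-set cells in vehicle and p38KO. Of all kept cells the shares were 5.94%, 8.93% and 4.12%, and after thinning 4.97%, 6.61% and 3.96%. The order p38i, vehicle, p38KO was the same in all of these measures, with gaps between libraries that shrank after thinning. The remaining monocytes included 22, 11 and 27 cells with 2 or more NK cell markers, and without such cells the share of Emp1-set cells in monocytes was 54.5%, 60.9% and 49.1%.

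**Figure D1:**
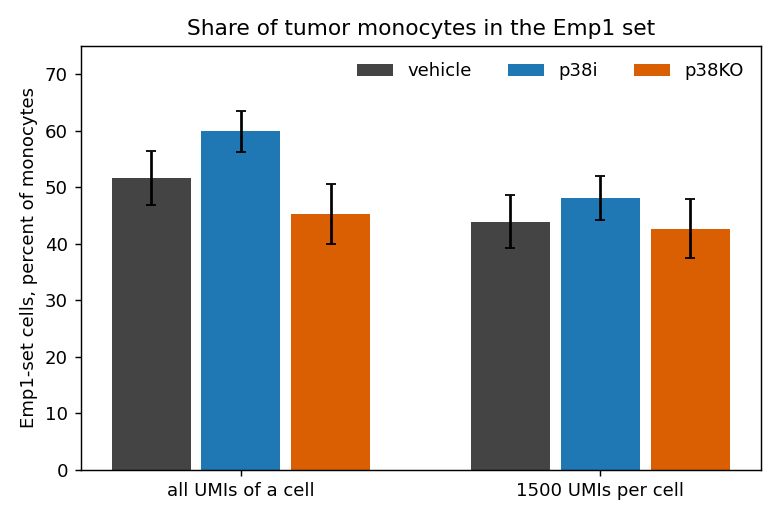
Percent of monocytes that were Emp1-set cells in the vehicle, p38i and p38KO libraries, with all UMIs of each cell (left bars) and with each cell thinned to 1500 UMIs (right bars). Error bars are 95% Clopper-Pearson intervals of counting error. With all UMIs p38i is highest at 59.9%, and after thinning the 3 libraries lie between 42.6% and 48.0% with overlapping intervals.

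The 6 selecting genes did not come as a block. Of the Emp1-set cells, 42, 110 and 39 in vehicle, p38i and p38KO carried exactly 2 of them, and 3, 11 and 1 carried all 6. Just outside the threshold, 42, 74 and 30 monocytes with fewer than 2 Ace genes carried exactly 1. The commonest combination was Sdc1 with Emp1, Tgm2 and Dmkn and no other selecting gene, found in 82 cells (10.1%), of which 32 were in vehicle, 44 in p38i and 6 in p38KO. Emp1 with Tgm2 alone was found in 76 cells (9.34%). Both of these combinations held Emp1 and Tgm2, and they left out Inhba.

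Against Ace-set monocytes, Sdc1, Emp1 and Dmkn marked the set most narrowly of the selecting genes described here. Positions are on GRCm38. Sdc1 (chr12:8771323-8793715), which encodes the heparan sulfate proteoglycan syndecan-1, stood at 290, 235 and 188 CPM, against 86.7, 108 and 84.3 CPM in Ace-set monocytes and 9.10, 3.76 and 1.64 CPM in macrophages. Emp1 (chr6:135362545-135383173), an epithelial membrane protein, stood at 601, 467 and 474 CPM, against 166, 179 and 177 CPM in Ace-set monocytes and 54.2, 41.4 and 35.8 CPM in macrophages. Dmkn (chr7:30763756-30781063), a secreted protein first known from skin, stood at 282, 297 and 197 CPM, against 79.4, 175 and 58.0 CPM in Ace-set monocytes and 2.38, 2.63 and 0.274 CPM in macrophages. For each of these genes the order Emp1-set, Ace-set, macrophage held in every library. In the remaining monocytes Emp1 stood at 81.3, 44.1 and 11.5 CPM, and Inhba, described below, at 0, 2.94 and 0 CPM. At 1500 UMIs a cell, Emp1 was found in 52.0%, 47.9% and 49.7% of Emp1-set cells and in 3.52%, 3.39% and 1.37% of T cells, which had a median of 4501, 3587 and 4449 UMIs.

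Tgm2 and Inhba were less selective against Ace-set monocytes. Tgm2 (chr2:158116402-158146436), a protein crosslinking enzyme, stood at 1631, 1202 and 1685 CPM in Emp1-set and at 1191, 932 and 1120 CPM in Ace-set monocytes. A Tgm2 UMI was found at 1500 UMIs in 63.9%, 56.5% and 66.7% of Emp1-set cells, in 63.1%, 59.9% and 58.3% of Ace-set cells and in 17.3%, 15.8% and 24.0% of neutrophils, whose median depth was 2433, 2146 and 2138 UMIs. Inhba (chr13:16011851-16031621), which encodes the subunit of activin A, stood at 135, 134 and 302 CPM in Emp1-set and at 101, 146 and 233 CPM in Ace-set monocytes. It rested on few cells, since 5 cells held 36.5%, 37.4% and 73.9% of its UMIs in vehicle, p38i and p38KO. Thbs1 (chr2:118111876-118127133), the matrix protein thrombospondin 1, is a marker of the series that the rule did not use. It stood at 808, 529 and 557 CPM in Emp1-set cells, against 267, 165 and 51.4 CPM in Ace-set monocytes, 385, 142 and 96.3 CPM in the remaining monocytes and 7.13, 19.9 and 11.1 CPM in macrophages. By CPM Thbs1 was highest in the Emp1 set in all libraries, and unlike Sdc1, Dmkn and Inhba it was also plentiful in the remaining monocytes of vehicle. Without the cells with NK markers, the remaining monocytes held 575, 163 and 168 CPM of Thbs1. At 1500 UMIs it was found in 36.1%, 14.6% and 11.4% of these, and in 36.6%, 35.5% and 26.4% of Emp1-set cells, so the shares were close in vehicle.

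**Figure D2:**
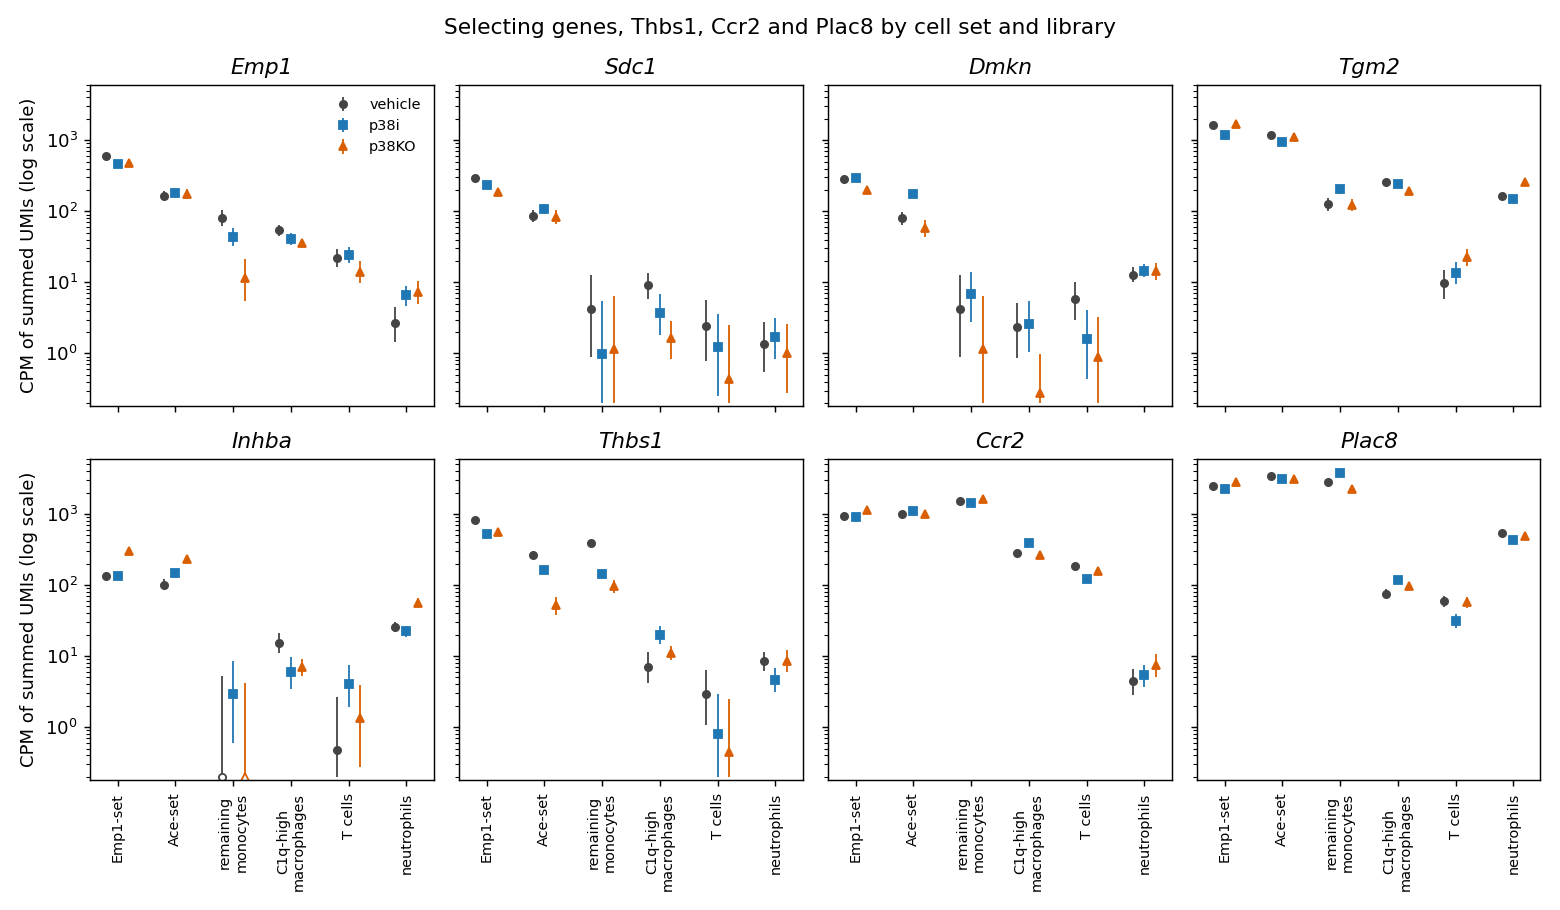
Level of 5 selecting genes, Thbs1, Ccr2 and Plac8 in 6 cell sets (x axis), as CPM of summed UMIs on a log axis, with 95% Poisson intervals. Symbols are the vehicle, p38i and p38KO libraries, and an open symbol at the bottom marks 0 UMIs. Sdc1, Emp1 and Dmkn are highest in the Emp1 set in every library, while Tgm2 is also high in Ace-set monocytes.

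Within the monocytes with fewer than 2 Ace genes, other programs varied with the number of selecting genes. At 1500 UMIs this limit was applied to the thinned cells, which can include Ace-set monocytes whose Ace genes were lost on thinning. With each cell at 1500 UMIs, cells with 0, 1, 2, 3 and 4 or more selecting genes numbered 82, 119, 102, 61 and 27 in vehicle. Their 22 listed hypoxia response genes summed to 1959, 4611, 6882, 8612 and 9778 CPM. In p38i the sums were 2075, 4805, 6618, 6618 and 7545 CPM, and in p38KO 1526, 4587, 5589, 8357 and 8472 CPM. Hypoxia genes were thus lowest where no selecting gene was found and highest where 4 or more were found, in each library. The cells with NK markers were kept in here, and the NK list went the other way, at 602, 232 and 496 CPM with 0 selecting genes and 49.4, 15.2 and 55.6 CPM with 4 or more in vehicle, p38i and p38KO. Their part in these sums was not tested.

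The 20 listed glycolysis genes ran largely the same way. They went from 6740 to 22642 CPM in vehicle, from 6715 to 20970 in p38i and from 4422 to 20778 in p38KO between cells with 0 and with 4 or more selecting genes. Chemokine genes went from 3016 to 11136 CPM, from 2355 to 9061 and from 3141 to 8167, and lipid and lysosome genes from 12780 to 27284 CPM, from 12925 to 21515 and from 12748 to 26806. MHC class II genes depended on the depth at which the rule was applied. With selecting genes counted at 1500 UMIs they stood at 12724 CPM with 0 and 4395 CPM with 4 or more in vehicle, 13171 and 6545 in p38i, and 12667 and 8694 in p38KO. With selecting genes counted over all UMIs of a cell they stood at 8260 and 8466 CPM in vehicle, 10678 and 7928 in p38i, and 5194 and 9636 in p38KO, so that the lower level with 4 or more was lost in vehicle and reversed in p38KO. The limit on Ace genes was then applied over all UMIs too, so the cells also differed (41, 42, 42, 72 and 113 in the vehicle groups). Which of these changes moved the MHC class II genes was not tested. The other lists described here kept their direction from 0 to 4 or more under the count over all UMIs. The exception was the immediate early genes, which stayed nearly level under both counts. S100 and granule genes went from 29846 to 16938 CPM, from 33035 to 22985 and from 32430 to 18306. Ccr2 itself went from 1520 to 840 CPM, from 1825 to 1167 and from 1993 to 972. Immediate early genes stayed nearly level, at 7228 and 7407 CPM in vehicle, 5057 and 5591 in p38i, and 5852 and 5667 in p38KO. The selecting genes used these same cells, so the trends describe the cells and test nothing.

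**Figure D3:**
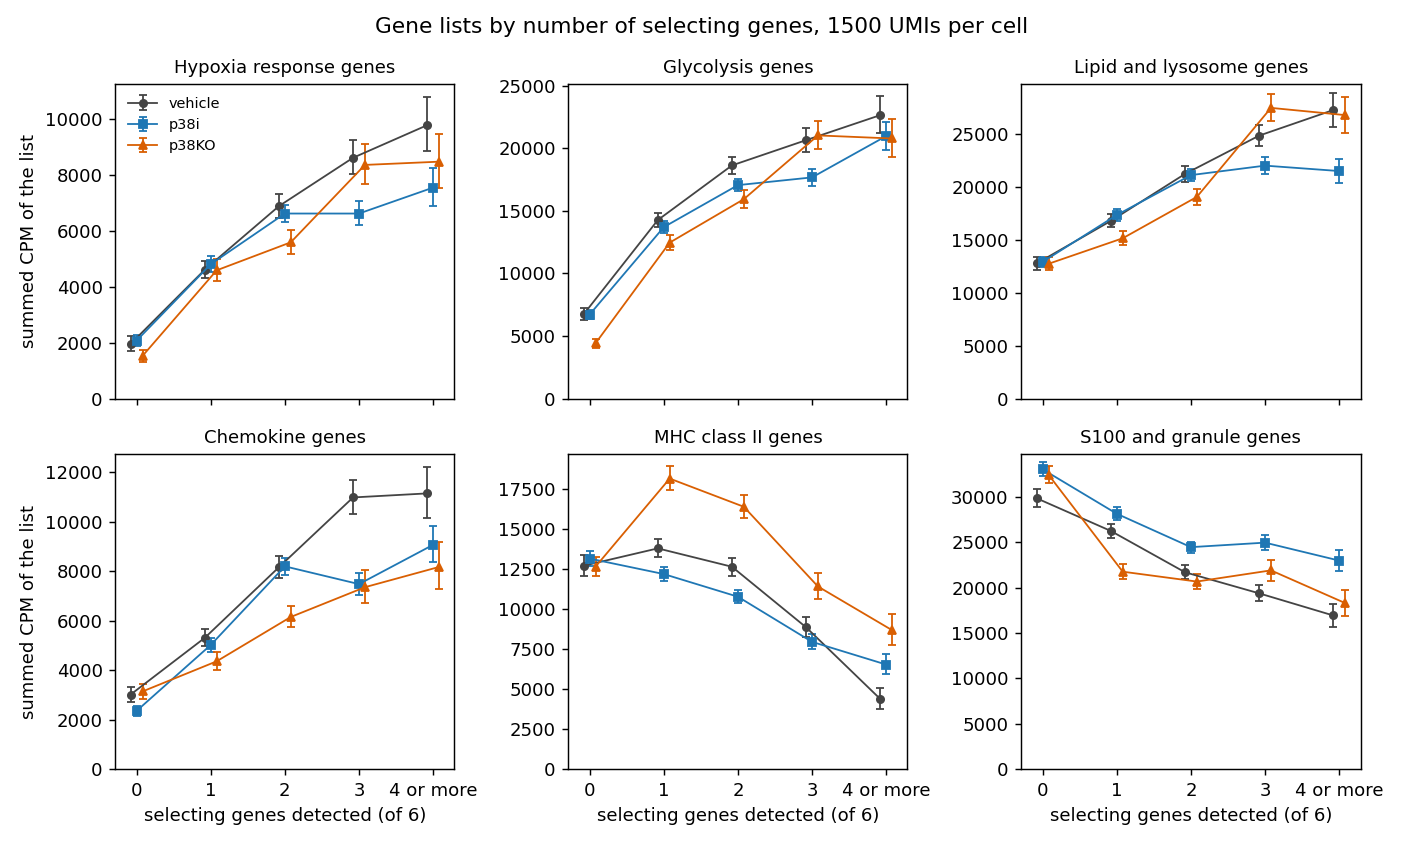
Summed CPM of 6 gene lists (y axes) in monocytes with fewer than 2 Ace genes, by how many of the 6 selecting genes a cell carried (x axis), with each cell at 1500 UMIs. Symbols and lines are the 3 libraries and bars are 95% Poisson intervals. Hypoxia, glycolysis, lipid and chemokine genes are higher, and S100 genes lower, in cells with 4 or more selecting genes than in cells with 0. MHC class II genes are lower here, but not in vehicle or p38KO when selecting and Ace genes are both counted over all UMIs, which also changes the cells.

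Hypoxia, glycolysis, chemokine and lipid genes, but not MHC class II or S100 genes, also set Emp1-set cells apart from the remaining monocytes. The cells with NK markers were left out of the latter here, which left 61, 123 and 70 cells, and a gene was counted as past the fold where its log2 ratio was 1 or more in the same direction in all 3 libraries. Of 6737 genes with at least 20 UMIs over both cell sets in each library, 343 (5.09%) were higher and 223 (3.31%) lower in Emp1-set cells, and the median log2 ratio of all genes was -0.13. Of 19 measured hypoxia response genes 15 were higher and none lower, with a median of 2.34. Hilpda, a lipid droplet protein, stood at 1035, 842 and 948 CPM against 117, 124 and 26.0 CPM in the remaining monocytes. Bnip3, a mitophagy receptor whose promoter is printed above, stood at 503, 469 and 464 CPM against 72.5, 125 and 34.0 CPM. Vegfa, the vessel growth factor, was also among the 15. Every one of the 19 was on the higher side. The Emp1-set cells held more UMIs in sum, so a gene could be measured here through them alone, which bears on every list in this comparison (Hilpda and Bnip3 had 13 and 17 UMIs in the remaining cells of p38KO). Of the 22 listed hypoxia genes 3 were not measured.

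Glycolysis genes showed 15 of 18 higher and none lower, with a median log2 ratio of 1.73. Slc2a1, the glucose transporter GLUT1, differed by 2.45 (2.05 to 2.87), 2.04 (1.75 to 2.34) and 2.55 (2.11 to 3.02) on the log2 scale in vehicle, p38i and p38KO. Ldha, which makes lactate, stood at 1512, 1514 and 1477 CPM against 435, 724 and 364 CPM. Of 16 chemokine genes 11 were higher and none lower (median 2.55), and of 24 matrix and adhesion genes 14 were higher and none lower (median 1.57), Tgm2 and Sdc1 among them, which the rule had selected. Cxcl3, a neutrophil attractant, stood at 818, 800 and 291 CPM against 10.7, 22.5 and 32.0 CPM. Spp1, which encodes osteopontin, stood at 1288, 1540 and 1823 CPM against 98.0, 178 and 132 CPM. Of 7 inflammatory cytokine genes 4 were higher and none lower (Il1a, Il1rn, Ptgs2 and Cd274, median 2.16).

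Other lists differed in part. Interferon response genes showed 9 of 24 higher and none lower (median 1.07), lipid and lysosome genes 10 of 22 higher and 1 lower, Lipa (median 1.13), coagulation genes 6 of 10 higher (median 1.62) and oxidative stress genes 6 of 16 higher (median 0.87). MHC class II genes did not differ past the fold (0 of 12, median -0.09). S100 and granule genes had 1 of 11 higher, S100a10, and 1 lower, Lyz2 (median 0.17). Immediate early genes were mixed, with Ier3 and Dusp4 higher and Fos, Fosb, Egr1, Ier2 and Nr4a1 lower of 22. Nr4a1, a factor that patrolling monocytes need, stood at 32.3, 13.9 and 15.1 CPM against 168, 137 and 180 CPM, and Cx3cr1, their chemokine receptor, at 18.7, 25.5 and 53.3 CPM against 222, 142 and 236 CPM. Both were chosen after their values were seen. The classical monocyte genes Ly6c2 and Ccr2 were also below the remaining monocytes, which held 729, 690 and 1389 CPM of Ly6c2 and 1833, 1611 and 2269 CPM of Ccr2.

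Against all other monocytes, with the NK-marker cells kept in, 97 of 8211 genes (1.18%) were higher and 205 (2.5%) lower past the fold in all libraries (median of all genes -0.16). Without the NK-marker cells 68 were higher and 97 lower. Granzyme genes led the lower side (Gzmb at 1.56, 3.46 and 9.55 CPM against 211, 182 and 208 CPM), and these are genes of cytotoxic lymphocytes. Gpat3, an enzyme of triglyceride synthesis, stood on the higher side at 176, 180 and 161 CPM against 59.6, 62.5 and 50.4 CPM.

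The Ace-set monocytes, which carry Ace or interferon-γ responsive genes such as Cxcl9, were the neighbors with the fewest genes past the fold. Most of them, 82 of 130, 112 of 152 and 70 of 96, also carried 2 or more selecting genes. Of 7213 genes, 32 (0.444%) were higher and 63 (0.873%) lower in Emp1-set cells in all libraries (median of all genes -0.08). The genes higher in the Emp1 set were led by chemokines of 1 cluster on chromosome 11. Ccl7 (chr11:82045712-82047525) stood at 197, 160 and 498 CPM against 43.3, 21.9 and 101 CPM, and Ccl2 (chr11:82035571-82037453) at 440, 488 and 951 CPM against 120, 117 and 211 CPM. Both encode ligands of CCR2. Their UMIs sat in a minority of cells, since at 1500 UMIs 16.3%, 17.3% and 22.6% of Emp1-set cells carried Ccl2 (0%, 0.713% and 0.911% of T cells), and 5 cells held 50.4%, 38.2% and 57.4% of its UMIs. Ccl7 was more concentrated still, with 83.9%, 59.7% and 71.1% of UMIs in 5 cells.

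Pf4, Ccl6 and Ccl9 were higher as well. Pf4 (chr5:90772435-90773383), platelet factor 4, stood at 680, 394 and 572 CPM against 80.2, 136 and 29.5 CPM, with 52.3%, 33.2% and 76.5% of its UMIs in 5 cells. At 1500 UMIs Pf4 was found in 11.5%, 11.7% and 7.55% of Emp1-set cells and in 44.1%, 34.4% and 29.6% of C1q-high macrophages. Larger shares of the macrophages also carried Ccl2 (33.9%, 18.5% and 26.6%) and Ccl7 (22.05%, 15.9% and 27.5%). For Ccl2 the intervals of macrophages and Emp1-set cells overlapped in p38i (12.7 to 25.4 and 13.8 to 21.2). They overlapped in p38KO too (22.6 to 30.9 and 16.4 to 29.9). Ccl6 stood at 2278, 2512 and 2005 CPM against 1019, 870 and 455 CPM, and Ccl9 at 1015, 1001 and 865 CPM against 391, 306 and 304 CPM. Of 17 measured chemokine genes 5 were higher in the Emp1 set and 3 lower, namely Ccl5, Cxcl9 (limited by the rule) and Cxcl16, with a median of 0.97. Ccl5, a T cell attractant, stood at 34.4, 26.1 and 31.8 CPM against 172, 177 and 360 CPM. Each chemokine named here was found in both monocyte sets, at different levels.

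Some MHC class II genes, which present antigen to T cells, were lower than in the Ace set. Of 12 genes, 5 were lower (H2-Aa, H2-Ab1, H2-Eb1, H2-DMb1 and Cd74) and none higher, with a median log2 ratio of -1.15. H2-Eb1 stood at 928, 745 and 946 CPM against 2740, 2379 and 3126 CPM, and Cd74, the invariant chain, at 4640, 3761 and 4496 CPM against 9709, 8329 and 10811 CPM. At 1500 UMIs the median Emp1-set cell held 7, 6 and 8 UMIs over the list, and the median Ace-set cell 27.5, 22.5 and 31. Most Emp1-set cells were low and some were not, since the means in the Emp1 set were 16.5, 14.3 and 17.6.

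Other lists stood closer together. Of 19 hypoxia genes 2 were higher past the fold, Adm and Hilpda, and 18 were on the higher side (median 0.58), of 24 matrix genes 5 were higher (Thbs1, F13a1, Sdc1, a selecting gene, Mmp8 and Mmp19, median 0.38), and of 22 lipid and lysosome genes 3 were higher (Gpnmb, Fabp5 and Ctsl, median 0.33). Fabp5, a fatty acid carrier, stood at 716, 993 and 987 CPM against 255, 361 and 231 CPM (43.6%, 26.0% and 61.7% of its UMIs in 5 cells), and Ctsl, a lysosomal protease, at 841, 919 and 1299 CPM against 373, 363 and 433 CPM. No gene of 19 glycolysis genes (17 on the higher side, median 0.24), 22 immediate early genes (0.28) or 11 S100 and granule genes (0.34) was past the fold. Interferon response genes had 2 of 27 lower, Iigp1 and Cxcl9, which the rule limits (median -0.33).

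**Figure D4:**
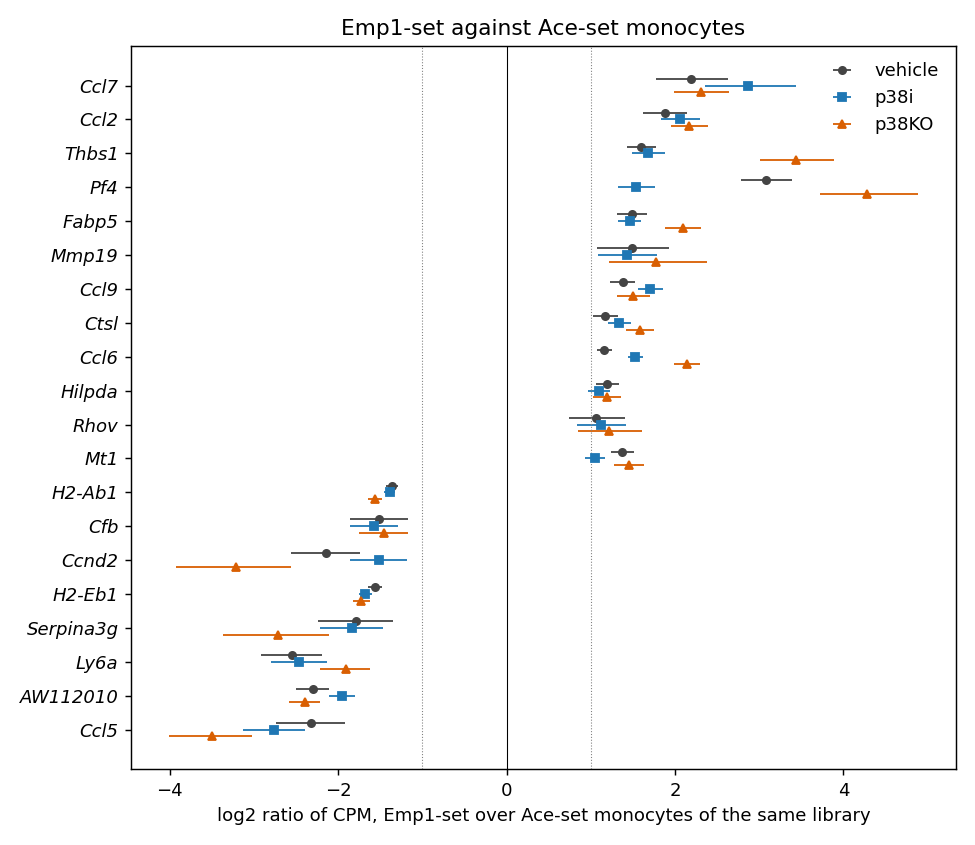
Log2 ratio of CPM in Emp1-set over Ace-set monocytes of the same library (x axis) for the 20 genes named by size of difference, with 95% counting intervals and dotted lines at log2 ratios of -1 and 1. Symbols are the vehicle, p38i and p38KO libraries. Ccl7, Ccl2, Thbs1 and Pf4 lie above 1 and Ccl5, Ly6a and H2-Eb1 below -1 in all libraries.

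C1q-high macrophages were farther away, with 605 of 8902 genes (6.8%) higher and 837 (9.4%) lower in Emp1-set cells (median of all genes -0.16). The macrophages were deeper, with a median of 17769, 16779 and 13445 UMIs. Of 20 listed proliferation genes 16 were lower than in macrophages and none higher, a count that includes genes measured through the macrophages alone. Mki67, a marker of cycling cells, had 3, 4 and 1 UMIs in all Emp1-set cells of vehicle, p38i and p38KO (1.56, 1.26 and 0.796 CPM), against 57.4, 50.8 and 95.2 CPM in macrophages. The list was not absent from the set, since at 1500 UMIs the median Emp1-set cell held 1 UMI over it in each library, and 24.7%, 21.96% and 23.3% of the cells held none. S100 and granule genes were higher in 9 of 11, such as S100a4 at 1665, 1848 and 1472 CPM against 92.6, 120 and 63.9 CPM. Hypoxia genes were higher in 14 of 20 (median 1.53), Hilpda standing at 197, 142 and 87.1 CPM in the macrophages. Hp, which encodes the hemoglobin scavenger haptoglobin, stood at 251, 270 and 236 CPM against 4.75, 11.7 and 4.79 CPM. Of 12 MHC class II genes 5 were lower and 1 higher, Cd80, and Apoe, a lipid carrier, was at 11643, 15028 and 21875 CPM in macrophages.

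Cells within the Emp1 set varied most in a few abundant transcripts. Among 883 genes with a mean of at least 0.2 UMIs at 1500 UMIs a cell, the median variance to mean ratio was 1.08. S100a8 led with a ratio of at least 31.8 in each library, and it is a transcript abundant in neutrophils. Lyz2 (17.2), Spp1 (17.2), Cd74 (12.9), Fabp5 (10.98), S100a9 (10.4), Ccl6 (10.1), Ccl2 (8.96) and Rsad2 (8.69) were among the genes of the lists above that followed.

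The p38i and p38KO tumors were each compared with vehicle within Emp1-set cells, and both comparisons share the 1 vehicle library. Between p38i and vehicle, 199 of 8704 measured genes (2.29%) were higher and 113 (1.3%) lower past a log2 ratio of 1. Between p38KO and vehicle, 224 of 7882 (2.84%) were higher and 147 (1.87%) lower. The median log2 ratio of all genes was 0.03 in each. Most of these genes were sparse, since among genes with at least 100 UMIs over both libraries 13 of 5210 were higher and 21 lower in p38i, and 39 of 3894 higher and 15 lower in p38KO.

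Immediate early genes were lower in p38i. Of 23 measured, 6 were lower past the fold (Fos, Fosb, Atf3, Zfp36, Dusp1 and Nr4a1) and none higher, with a median log2 ratio of -0.52. Fos (chr12:85473890-85477273), a subunit of the factor AP-1 whose promoter is printed above, stood at 574 CPM in vehicle, 198 in p38i and 192 in p38KO. Against vehicle, Fos had a log2 ratio of -1.53 (interval -1.68 to -1.39) under the inhibitor and -1.58 (-1.79 to -1.38) in p38KO tumors. Dusp1, the phosphatase that switches off p38 and JNK, stood at 547, 163 and 191 CPM, with ratios of -1.74 (-1.90 to -1.59) and -1.52 (-1.73 to -1.31). In both genes vehicle was high and the other libraries lay close together. At 1500 UMIs Fos was found in 41.0%, 21.0% and 16.4% of Emp1-set cells and in 8.13%, 4.10% and 5.69% of T cells, and Dusp1 in 37.9%, 20.1% and 20.1% and in 16.8%, 6.06% and 10.7%.

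Other genes parted between the conditions. Zfp36, whose product destabilizes inflammatory mRNAs and is a target of the p38 partner MK2, stood at 435, 177 and 331 CPM, with ratios of -1.29 (-1.45 to -1.14) for p38i and -0.39 (-0.56 to -0.22) for p38KO. Atf3, a stress factor, stood at 312, 138 and 235 CPM. Btg2, an antiproliferative gene of the dissociation list given below and not of the immediate early list, stood at 320, 117 and 162 CPM, with ratios of -1.45 (-1.64 to -1.27) and -0.99 (-1.22 to -0.75). Here p38i was lowest and p38KO lay between it and vehicle. In p38KO 4 of 23 immediate early genes were lower past the fold (Fos, Egr2, Dusp1 and Nr4a1), none higher, and the median was -0.19.

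Fos and Dusp1 were also lower in other cells of the same libraries. In Ace-set monocytes Fos had log2 ratios of -0.98 and -1.70 in p38i and p38KO, and in C1q-high macrophages -1.06 and -1.28. Dusp1 had ratios of -1.85 and -1.90 in Ace-set monocytes and -2.04 and -1.66 in macrophages. In neutrophils at 1500 UMIs, Dusp1 was found in 77.6%, 50.4% and 62.0% of cells, and in T cells likewise fewer in both than in vehicle. Zfp36 did not follow in all of them, at 7.32%, 8.73% and 9.11% of T cells and 73.8%, 63.9% and 79.0% of neutrophils, and Btg2 in neutrophils was below vehicle in p38i and not in p38KO, at 58.7%, 49.8% and 60.6%. Genes that tissue dissociation can induce overlap this list, and of 15 measured ones 4 were lower in p38i (Fos, Atf3, Nr4a1 and Btg2; median -0.42) and 2 in p38KO (median -0.19). The part of dissociation or of a batch in these values was not tested.

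Some inflammatory mediators were lower in p38i too. Cxcl2, a neutrophil attractant, stood at 1080 CPM in vehicle, 383 in p38i and 705 in p38KO. Its log2 ratios were -1.49 (-1.60 to -1.39) for p38i and -0.62 (-0.73 to -0.50) for p38KO. At 1500 UMIs Cxcl2 was found in 33.9%, 25.2% and 20.8% of Emp1-set cells, so by share p38KO was lowest. The intervals of p38i and p38KO overlapped (21.2 to 29.6 and 14.7 to 27.9). The few cells richest in Cxcl2 held 27.1%, 18.9% and 52.1% of its UMIs, so its p38KO level rested largely on them. Ptgs2, which encodes cyclooxygenase 2 and has an mRNA that p38 is known to stabilize, stood at 235, 85.6 and 190 CPM, with ratios of -1.45 (-1.68 to -1.23) and -0.30 (-0.54 to -0.07). Both genes were lower in the p38i Ace set as well, at -1.77 and -1.49. Il1b, an inflammatory cytokine, differed less, with 1469, 1094 and 1330 CPM. Of 14 genes that the study named in monocytes on these same libraries, which makes them no independent evidence, 13 were measured. Cxcl2 and Ptgs2 were lower past the fold in p38i and none in p38KO, with medians of -0.24 and -0.22. Of the 13, 12 lay below vehicle in p38i and 9 in p38KO, most of them short of the fold. Among the others, Vegfa stood at 481, 294 and 393 CPM, Tgfb1 at 781, 704 and 741, Cd274, the checkpoint ligand PD-L1, at 365, 308 and 314, and Csf2rb, a GM-CSF receptor subunit, at 379, 510 and 438.

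Few genes were clearly higher in p38i. Slpi, a secreted protease inhibitor, stood at 359, 968 and 808 CPM, with log2 ratios of 1.43 (1.31 to 1.55) for p38i and 1.17 (1.03 to 1.31) for p38KO, and 5 cells held 33.8%, 40.6% and 63.9% of its UMIs. At 1500 UMIs Slpi was found in 22.5%, 32.0% and 23.3% of Emp1-set cells and in 35.3%, 37.2% and 34.1% of neutrophils. Il1r2, a neutrophil gene of the rule that was also higher in p38i, was found in 4.41%, 13.3% and 3.77% of Emp1-set cells. In neutrophils its shares were 68.1%, 68.4% and 63.3%, and the part of neutrophil RNA was not tested. Tnfrsf9, the costimulatory receptor 4-1BB, stood at 44.2, 142 and 23.1 CPM, with ratios of 1.68 (1.34 to 2.03) and -0.94 (-1.60 to -0.31). It was found at 1500 UMIs in 5.29%, 10.98% and 4.40% of Emp1-set cells and in 35.2%, 37.8% and 27.8% of T cells. The share in Emp1-set cells was below that in T cells in every library, and the part of T cell RNA in it was not tested. Cd33, a sialic acid-binding lectin, stood at 48.9, 105 and 57.3 CPM and Txnip, a regulator of glucose uptake, at 55.7, 112 and 88.4 CPM. Hypoxia genes (0 of 20, median -0.11), glycolysis genes (0 of 19, median -0.15), interferon genes (0 of 27, median -0.12) and MHC class II genes (0 of 12, median -0.26) had no member past the fold in p38i.

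Interferon response genes were higher in p38KO. Of 27 measured, 9 were higher past the fold (Ifit1, Ifit2, Ifit3, Ifit3b, Rsad2, Oasl1, Oasl2, Usp18 and Socs1), with a median log2 ratio of 0.57. The 1 lower was Cxcl9, which interferon-γ induces and which the rule limits in these cells. Rsad2, the antiviral enzyme viperin, stood at 318 CPM in vehicle, 292 in p38i and 803 in p38KO, a ratio of 1.34 (1.19 to 1.48). Ifit3, which binds to antiviral signaling proteins, stood at 42.2, 36.5 and 158 CPM, a ratio of 1.90 (1.52 to 2.29), and Oasl1, a regulator of the antiviral response, at 42.2, 47.2 and 162 CPM, a ratio of 1.94 (1.56 to 2.33). In these genes vehicle and p38i lay close together and p38KO alone was high.

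The same genes were spread unevenly over cells. At 1500 UMIs Rsad2 was found in 11.01%, 9.35% and 22.6% of Emp1-set cells, in 31.7%, 17.0% and 40.0% of neutrophils and in 1.90%, 1.43% and 3.19% of T cells. Between 42.3% and 70.7% of the Rsad2 UMIs of Emp1-set cells were in 5 cells of a library. Over the whole interferon list the median Emp1-set cell held 4, 3 and 7 UMIs of 1500 and the mean was 6.81, 5.99 and 11.3, so a minority of cells lay far above the rest. The ratio of Rsad2 in p38KO was 1.29 in C1q-high macrophages and -0.40 in Ace-set monocytes, although the share of Ace-set cells with Rsad2 was 11.5%, 9.87% and 21.9%. That of Ifit3 was 2.22 and 0.36.

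Of 18 measured chemokine genes 3 were higher in p38KO (Ccl2, Ccl7 and Ccl8), with a median log2 ratio of -0.15 over the list. Another 3 were lower (Cxcl3, Ppbp and Cxcl9, which the rule limits). Ccl2 and Ccl7 had log2 ratios of 1.11 (0.98 to 1.24) and 1.34 (1.15 to 1.53) in p38KO and of 0.15 (0.03 to 0.27) and -0.30 (-0.49 to -0.10) in p38i. With each cell weighted alike the p38KO ratio of Ccl2 was 1.03, with every cell at 1500 UMIs it was 0.99 and thus short of the fold, and the shares of cells with Ccl2 given above had overlapping intervals in vehicle and p38KO (11.7 to 21.8 and 16.4 to 29.9). Inhba had a ratio of 1.16 (0.93 to 1.39) in p38KO, of which 5 cells gave most of the UMIs, and with each cell weighted alike it was 0.81. Cxcl3 had a ratio of -1.49 (-1.66 to -1.32), but at 1500 UMIs it was found in 13.2% of Emp1-set cells in vehicle and 12.6% in p38KO, and 5 cells held 62.0% of its UMIs in each of these libraries. Mmp12, macrophage elastase, was lower in p38KO, at 469, 722 and 228 CPM, a ratio of -1.04 (-1.24 to -0.85). Klf2, a factor of quiescence, stood at 154, 74.0 and 54.1 CPM and Rgs1, a brake on chemokine receptors, at 222, 110 and 91.6 CPM, so both were below vehicle in p38i and in p38KO.

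The p38KO genes with the most extreme ratios went with markers of other cells. Mcpt2, a mast cell protease, had 1, 0 and 164 UMIs in Emp1-set cells, and 92.7% of the p38KO UMIs were in 5 cells. It was found at 1500 UMIs in 3.87% of p38KO T cells and 4.41% of p38KO neutrophils, and in 3.77% of Emp1-set cells. Ccl8, a chemokine that 57.5% of p38KO C1q-high macrophages carried, had 30, 31 and 348 UMIs, with 87.6% of the p38KO UMIs in 5 cells. The mast, tumor epithelial and NK lists and the macrophage genes C1qa and C1qb were higher in the same library, as given above. Their part in these values, and in those of Ccl2 and Ccl7, was not tested. Without the cells that held 3 or more UMIs over the mast, tumor epithelial, B, T and NK lists, a choice made after the data were seen, 220 genes were higher and 157 lower in p38KO past the fold, close to the counts with them. These counts cover all measured genes and do not show what became of Mcpt2 or Ccl8. Cells with macrophage markers were left in. Hypoxia (0 of 19, median -0.12), glycolysis (0 of 19, median -0.05) and MHC class II genes (0 of 12, median -0.01) had no member past the fold in p38KO.

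The p38 pathway was examined as well. Mapk14 itself (chr17:28691329-28748406) stood at 26.0, 36.5 and 26.3 CPM in Emp1-set cells, with log2 ratios of 0.49 (-0.00 to 1.00) for p38i and 0.01 (-0.67 to 0.68) for p38KO. Of 18 and 17 measured genes of the pathway, the ones past the fold were the p38 targets Zfp36 and Dusp1 in p38i and Dusp1 in p38KO, all lower, with medians of 0.05 and 0.03.

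**Figure D5:**
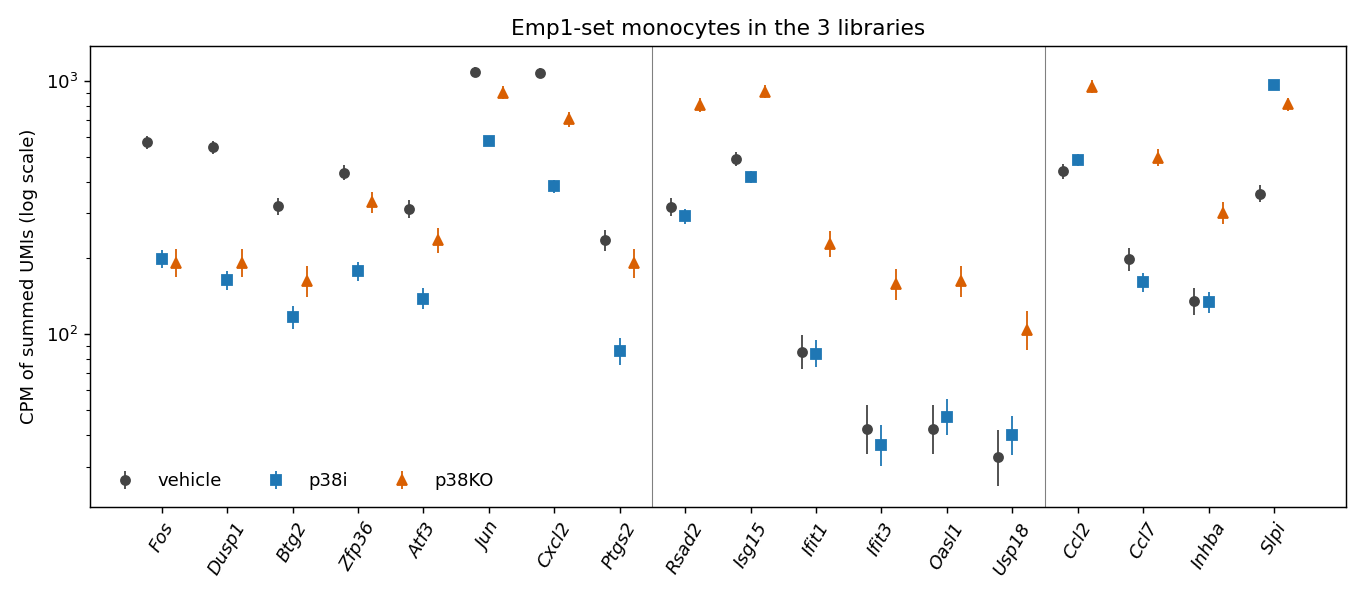
Level of 18 genes in Emp1-set monocytes of the vehicle, p38i and p38KO libraries, as CPM of summed UMIs on a log axis with 95% Poisson intervals. Grey lines part the immediate early and inflammatory genes (left), the interferon response genes (middle) and other genes named in the text (right). By CPM, Fos and Dusp1 are lower in p38i and p38KO than in vehicle, Cxcl2 and Ptgs2 are lowest in p38i, and Rsad2, Ifit3 and Oasl1 are highest in p38KO. The share of cells with Cxcl2, given in the text, was lowest in p38KO instead.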

How the data were processed

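CD45+ cells of 3 pooled 4T1-luc tumors per group were measured in 1 10x 3' library each (vehicle, p38i and p38KO). The labels and the study's methods name different versions of the 10x chemistry. The authors ran Cell Ranger (6.0.0 per the file headers, genome build mm10 per the submitters' processing notes) and deposited whole-number UMI counts per gene and barcode for 4588, 6343 and 5212 barcodes. From these counts, kept cells and cell sets were chosen by fixed rules on detected genes. Median depth was 3162, 3038 and 3317 UMIs per kept cell. No doublet caller was run. An alternative left out unusually deep cells instead. Where a symbol belonged to more than 1 feature (40 of 32285 features), the feature with more UMIs was used.

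UMIs were summed over the cells of a set and library and scaled to counts per 1000000 UMIs of that sum (CPM). Levels carry exact Poisson intervals, ratios exact conditional binomial intervals and shares Clopper-Pearson intervals, all 95% and of counting error only, and a count of 0 was set to 0.5 in a ratio. Genes were measured with at least 20 UMIs over both sides. A log2 ratio of 1 or more either way, in all 3 libraries for comparisons of cell sets, counted as past the fold. No test was run, since each group has 1 library and cells are not replicates. For shares of cells with a UMI, each cell was thinned to 1500 UMIs. Named genes were the rule genes, the 12 highest and 8 lowest genes (8 and 8 for p38i and p38KO) by log2 ratio with at least 100 UMIs and 100 CPM, the most abundant or differing genes of each list, and 14 genes named by the study, and some further genes were chosen after their values were seen. The cells and the gene lists were chosen with earlier results of these data known. Mx1 was not among the features. Of the 6 selecting genes, 1 is not reported here. Gene positions are from GENCODE M21 on GRCm38 and promoters from RefSeq on GRCm38.p6, where 1 promoter was used per gene. The interval code was checked on simulated counts. Python 3.11.15, numpy 2.4.6, scipy 1.17.1, pandas 2.3.3 and matplotlib 3.10.9 were used.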

Additional observations from a re-analysis of the deposited data

Results flagged for a closer look

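In a few genes the difference between p38KO and vehicle pointed one way in Emp1-set monocytes and the other way in another cell set. Saa3, an acute phase protein, had a log2 ratio of -1.78 in Emp1-set cells and 1.57 in C1q-high macrophages (197 UMIs in p38KO and 23 in vehicle), while at 1500 UMIs it was found in 2.83% of macrophages in p38KO and 2.36% in vehicle. Cxcl3 had -1.49 in Emp1-set cells and 2.27 in Ace-set monocytes (276 and 78 UMIs), while the share of cells with Cxcl3 at 1500 UMIs was 13.2% in vehicle and 12.6% in p38KO in the Emp1 set, and 4.62% and 5.21% in the Ace set. Inhba had 1.16 in Emp1-set cells and -1.15 in macrophages (51 and 39 UMIs), where it was found in 0.436% of cells in p38KO and 1.57% in vehicle. With 1 library per group these differences were not tested.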

How the results depend on the processing

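Values of 6 main results were recomputed under 62 alternatives, of which 43 stayed within the margin. The margin was the counting interval for a share and a fixed factor for a count of genes, and no reversal was defined for these. Single-gene values, 70 in all, were recomputed under 540 alternatives, of which 456 stayed within the counting interval or the range of the libraries. A reversal was asked only of genes with a main log2 ratio of 1 or more either way, and none reversed. Thinning to 1500 UMIs moved the share of monocytes in the Emp1 set to 43.9% in vehicle and 48.0% in p38i. Asking for 3 of the 6 selecting genes gave 42.0%, 44.5% and 34.1% in vehicle, p38i and p38KO, and dropping the limit on Ace genes gave 70.2%, 75.6% and 65.1%. Genes past the fold numbered 312 for p38i, and 2601 with a minimum of 1 UMI, 85 with 50 UMIs and 1549 at a log2 ratio of 0.5. For p38KO they numbered 371, and 3023, 113 and 1710. Against all other monocytes they numbered 302, and 790 with 1 UMI, 172 with 50, 104 after thinning, 1228 at a log2 ratio of 0.5 and 165 without the cells with NK markers, the last chosen after seeing the data. Scaling by the median of ratios made 43.0% of the calls against all other monocytes higher ones (131 higher and 174 lower), and CPM 32.1%. In the main setting 8704, 7882 and 8211 genes were measured for p38i, p38KO and the comparison with all other monocytes. That number changes with the minimum, and with a minimum of 1 UMI a gene at 1 against 0 could pass the fold. The minimum and the fold thus set the counts directly, and the cause of the other shifts was not tested. No paired analysis was possible because each group has 1 library and no test was made. Genes with few UMIs had wide intervals, such as Procr in p38i (8 and 28 UMIs in vehicle and p38i, log2 ratio 1.08, interval -0.09 to 2.43).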
